A study of Mus musculus with 12 samples.

Results

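Interferon-stimulated genes are the genes that cells switch on when type I or type II interferon binds its receptor. The 37 genes examined here were taken by symbol from a list of this response, and 35 of them have a row in the expression table of 17922 genes. Mx1 and Mx2, which RefSeq annotates on GRCm38.p6 as transcribed pseudogenes, have no row and were not analysed here. RNA-seq was carried out on primary rib chondrocytes, the cartilage cells of the rib, released with collagenase and cultured overnight, in 12 libraries forming 4 groups of 3. The LDH knockout carried Col2-Cre, floxed Ldha on both alleles and a heterozygous null Ldhb allele (Col2-Cre:Ldha(fl/fl):Ldhb+/-) and was taken at postnatal day 5 (P5) with littermate controls. The Acly knockout carried Col2-Cre and floxed Acly on both alleles (Col2-Cre:Acly(fl/fl)) and was taken at the embryonic stage E18.5 with littermate controls. All mice were of a mixed strain in which C57BL/6 dominates. The genotype of the controls, including whether they carried Cre or the Ldhb null allele, is not given in the sources used here. Col2-Cre acts in cells with an active Col2a1 promoter. Cells in the cultures keep their floxed alleles if this promoter was never active in them or their precursors.

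Type I interferon receptors signal through the kinases Jak1 and Tyk2 to a transcription factor complex that includes Stat2 and Irf9. This complex binds the interferon-stimulated response element (ISRE) in the promoters of its targets, whereas genes that respond to type II interferon often carry gamma-activated sites (GAS). The targets include sensors of viral RNA, proteins that block viral entry, translation or replication, the ubiquitin-like Isg15 system, and genes of antigen presentation. Several of the signal carriers, among them Stat2, Irf9 and Irf7, are themselves targets, which closes a feed-forward loop.

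Promoters of 6 members are shown because the ISRE and GAS lie there, and these 6 were picked after their values were seen. Of the 35 genes, 28 had an entry in the RefSeq promoter table (build GRCm38.p6), in which the 250 bases before the start site were searched on both strands for the ISRE core (GAAA, any 2 bases, GAAA) and for the GAS motif TTCNNNGAA. The ISRE core was found for 12 of the 28 members (42.9%), against 3.46% of all 27025 genes in that table. The GAS motif was found for 6 of 28 (21.4%), against 8.13% of all genes. Overlapping matches were counted separately, and a match is a run of letters, not a tested binding site. The 5 sequences with an ISRE core below belong to the tandem genes Ifit1, Ifit3 and Ifit3b, to Isg15 and to the chemokine gene Cxcl10, and Irf1 is shown as a member with a GAS motif in place of the ISRE core. Capitals mark the ISRE core in the first 5 sequences and the GAS motif in the last, each 5′ to 3′ and ending at the base before the start site. They lie at chr19:34640639-34640888, plus strand (Ifit1), chr19:34583279-34583528, plus strand (Ifit3), chr19:34607707-34607956, plus strand (Ifit3b), chr4:156200819-156201068, minus strand (Isg15), chr5:92348890-92349139, minus strand (Cxcl10) and chr11:53769764-53770013, plus strand (Irf1), all in GRCm38.p6.
Ifit1: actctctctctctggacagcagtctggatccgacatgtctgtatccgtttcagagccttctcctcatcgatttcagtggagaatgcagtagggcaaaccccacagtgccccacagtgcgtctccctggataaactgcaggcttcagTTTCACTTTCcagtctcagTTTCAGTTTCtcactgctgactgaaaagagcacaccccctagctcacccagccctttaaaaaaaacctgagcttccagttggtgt
Ifit3: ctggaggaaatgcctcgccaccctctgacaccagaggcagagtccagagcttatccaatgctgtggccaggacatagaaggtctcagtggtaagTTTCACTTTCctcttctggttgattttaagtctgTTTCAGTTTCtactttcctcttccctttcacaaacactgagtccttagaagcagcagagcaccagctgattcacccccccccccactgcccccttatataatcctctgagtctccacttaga
Ifit3b: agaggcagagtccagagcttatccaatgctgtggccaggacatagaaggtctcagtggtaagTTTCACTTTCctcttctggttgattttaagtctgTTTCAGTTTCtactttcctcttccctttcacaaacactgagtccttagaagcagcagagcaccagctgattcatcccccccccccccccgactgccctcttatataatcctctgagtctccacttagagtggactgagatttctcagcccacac
Isg15: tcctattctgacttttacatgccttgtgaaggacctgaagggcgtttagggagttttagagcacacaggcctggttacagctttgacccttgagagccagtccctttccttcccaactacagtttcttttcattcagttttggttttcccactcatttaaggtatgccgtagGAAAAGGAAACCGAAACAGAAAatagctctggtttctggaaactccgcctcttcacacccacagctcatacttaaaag
Cxcl10: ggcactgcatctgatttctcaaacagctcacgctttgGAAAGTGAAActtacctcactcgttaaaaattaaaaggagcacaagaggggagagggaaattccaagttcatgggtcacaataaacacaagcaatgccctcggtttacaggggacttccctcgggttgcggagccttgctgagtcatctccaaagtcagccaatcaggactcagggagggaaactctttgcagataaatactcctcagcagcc
Irf1: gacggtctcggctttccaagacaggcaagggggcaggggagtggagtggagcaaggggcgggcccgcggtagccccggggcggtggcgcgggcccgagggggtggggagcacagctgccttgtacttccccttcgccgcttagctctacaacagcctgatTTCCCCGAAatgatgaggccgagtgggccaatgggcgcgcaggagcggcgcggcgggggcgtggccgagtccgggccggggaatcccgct
Matches in Ifit1 begin 104 and 85 bases before the start, those in Isg15 overlap and begin 78, 72 and 66 bases before it, and the match in Cxcl10 begins 213 bases before it. Ifit3 and Ifit3b share an unbroken run of 169 bases in these windows, with the same pair of matches at a different distance from the annotated start. These paralogs are alike in their transcripts too, and their deposited counts are not all whole numbers, so the division of reads between Ifit3 and Ifit3b is uncertain. The same holds for Ifit1, Oas1a, Oas3 and Xaf1, which also have fractional counts.

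Depth was even, with 26362407 to 28154143 expected counts a library, so that 3 counts amount to 0.107 to 0.114 CPM (counts scaled to library size). Ldha fell from 896 ± 51.1 CPM in LDH controls to 91.9 ± 7.01 CPM in knockouts (SD, n = 3), and Acly fell from 187 ± 5.07 CPM in Acly controls to 69.7 ± 18.7 CPM in knockouts (edgeR adjusted p 3.26e-07 and 0.0313). Ldhb was at 12.4 ± 0.609 CPM in LDH controls against 16.0 ± 1.15 CPM in knockouts, so the labelled loss of an Ldhb allele is not seen as a lower level. Summed markers of chondrocytes (12 genes such as Col2a1 and Acan) were at 9370 to 31300 CPM in every library. Summed signal of 4 Y-linked genes was high in LDH controls 1 and 2 and low in control 3 and all LDH knockouts, and was high in Acly control 2 and Acly knockouts 2 and 3. Acly knockout replicate 2 stood apart, as it correlated at 0.9861 with knockout 1 and at 0.9857 with knockout 3 (Pearson's r of log2 CPM across genes). These were the lowest values within any group, and knockouts 1 and 3 correlated at 0.9896. The labels do not say whether replicates came from separate animals, so p-values measure only the spread between these libraries.

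The level of the interferon-stimulated genes differed mainly between the E18.5 cultures of the Acly line and the P5 cultures of the LDH line. These differ in age, line and any library batch together. In the 3 Acly controls the median of the 35 genes was 19.4 to 20.5 FPKM (fragments scaled to transcript length and library size, a level per length), and no member was under 1 FPKM. In the 3 LDH controls the median was 0.660 to 0.860 FPKM, and 20 or 21 of the 35 genes were under 1 FPKM. Summed over the members, the level was 1735 to 1888 FPKM in Acly controls and 248 to 275 FPKM in LDH controls.

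**Figure D1:**
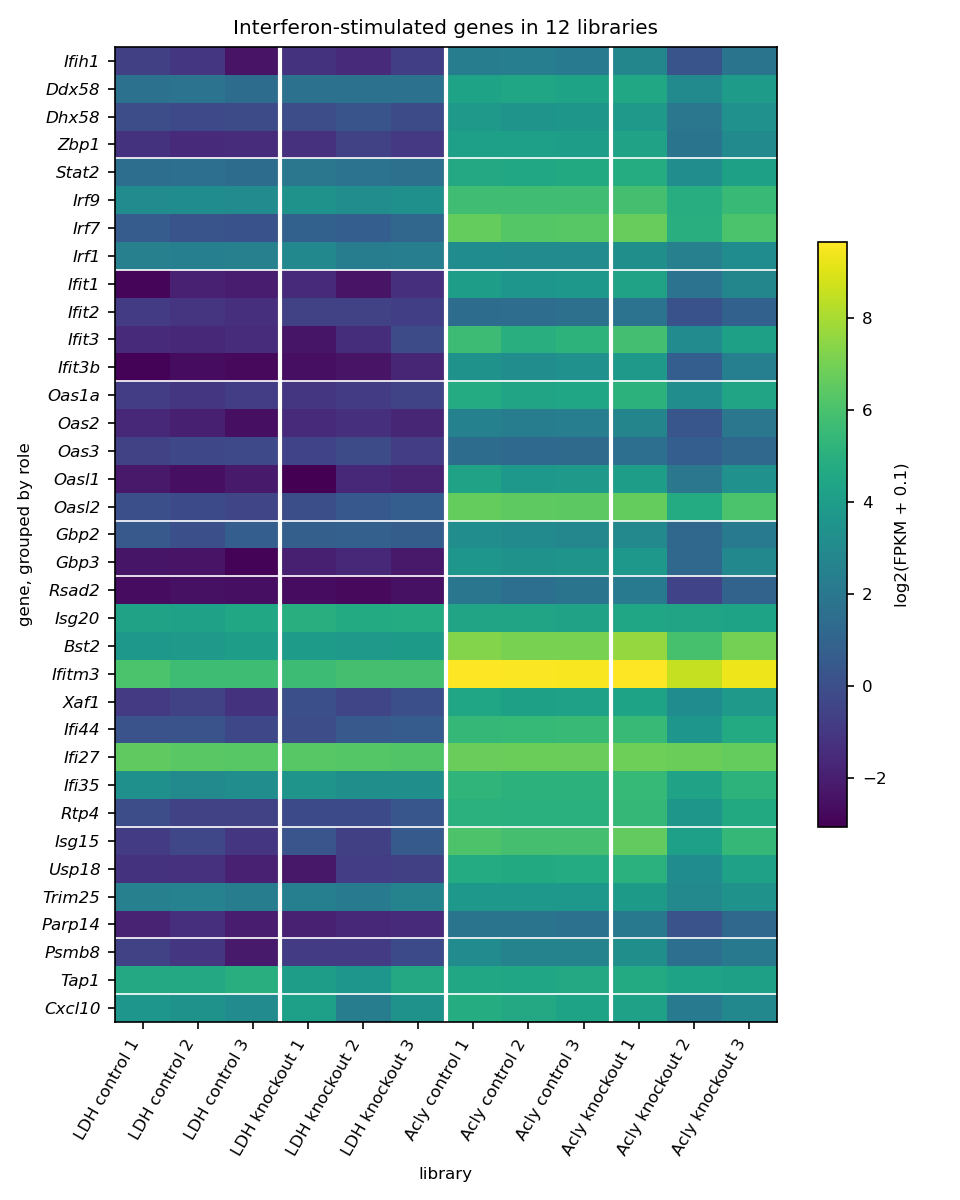
Heat map of log2(FPKM + 0.1) for the 35 genes (rows, grouped by role) in the 12 libraries (columns, grouped by genotype and age). Most rows are dark in the 6 P5 libraries and bright in the E18.5 libraries, Acly knockout replicate 2 is darker than its neighbours, and Isg20, Ifi27, Tap1 and Irf1 keep similar colours throughout.

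Ifitm3, a membrane protein that blocks viral fusion, was the most abundant member at E18.5. It was at 794, 771 and 750 FPKM in Acly controls and at 67.2, 51.6 and 52.0 FPKM in LDH controls. Ifi27, a mitochondrial protein, led at P5 and hardly differed between the control groups, with 106, 110 and 109 FPKM in Acly controls and 92.4, 85.3 and 81.3 FPKM in LDH controls. Bst2 (tetherin, which holds budding virus at the cell surface) was at 158, 135 and 135 FPKM in Acly controls against 12.9, 14.2 and 16.2 FPKM in LDH controls. Irf7, the transcription factor that amplifies type I interferon production, was at 99.9, 79.3 and 81.8 FPKM against 1.47, 1.10 and 1.0 FPKM. Oasl2, of the oligoadenylate synthetase-like family, was at 98.8, 90.6 and 86.3 FPKM against 0.950, 0.770 and 0.660 FPKM. These 5 genes were picked for the highest mean FPKM over the 12 libraries, so a high level at E18.5 helped to place them here. Every Acly control was above every LDH control for all 5 (34.4% of all genes). The gap was wide for all but Ifi27.

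In the fit of all 12 libraries, 31 of the 35 members passed an adjusted p of 0.05 by edgeR between both control groups, all of them higher in Acly controls, against a background of 55.0% of the 14251 genes tested, or 29.4% called higher. All but Isg20 and Tap1 had a positive log2 fold change, against 51.1% of all genes. The median log2 fold change of the members was 3.87, against 0.02 for all genes tested, and 21 members were called with at least a 10-fold difference, against 2.76% of all genes. Of the members, 33 had every Acly control above every LDH control (34.4% of all genes) and 2 had every Acly control below (31.1%). Ifit3b, Oasl1, Gbp3 and Rsad2 were too low to be tested among the P5 libraries alone and entered this fit through the E18.5 libraries. They had to differ, and they are counted in the 31 called, the 21, the 33 and the median of 3.87. Among the other 31 members 27 were called, and the remaining figures were not computed for these alone. Age, line and any library batch coincide in this comparison and cannot be told apart. Without a scaling factor the median of all genes moved to 0.19 and 33 members were called.

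By role, the Ifit genes, whose products bind foreign RNA and stall its translation, differed most. Ifit3 was at 91.6, 54.9 and 65.2 CPM in Acly controls and 0.524, 0.413 and 0.554 CPM in LDH controls. Ifit3b was at 19.4, 15.6 and 18.9 CPM against 0.0374, 0.113 and 0.0791 CPM, where 2 libraries held fewer than 3 counts. The pooled counts of Ifit3b gave a ratio of 201 with an exact 95% interval of 97.5 to 502 that covers counting error only. Ifit3b entered the fit only through the E18.5 libraries, so that it had to differ. On the log2 scale Ifit3 differed by 7.15 (SE 0.78, edgeR adjusted p 8.34e-06), Ifit1 by 6.71 (SE 0.68, adjusted p 4.52e-06) and Ifit2, the fourth of this family, by 2.67.

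All 5 Oas genes, which make or resemble the makers of the 2′-5′ oligoadenylates that activate RNase L, were called higher at E18.5 (29.4% of all genes). Their log2 fold changes ran from 1.71 for Oas3 to 6.98 for Oasl1. Oasl1 entered the fit only through the E18.5 libraries and had to differ, as did Gbp3 and Rsad2, given below. The ubiquitin-like modifier Isg15 was at 44.1, 37.1 and 38.2 CPM against 0.337, 0.488 and 0.277 CPM (log2 fold change 6.74, adjusted p 1.90e-06). Its deconjugating enzyme Usp18, which also dampens receptor signalling, had a log2 fold change of 6.39. The 4 sensors were all called higher (29.4% of all genes). The RNA helicases Ddx58 (RIG-I), Ifih1 (MDA5) and Dhx58 (LGP2) had 2.58, 3.79 and 3.78 and the nucleic acid sensor Zbp1 had 5.50. Among the transcription factors Irf7 had 6.03 (adjusted p 1.92e-07), Stat2 2.97, Irf9 2.50 and Irf1 0.48. The guanylate-binding protein Gbp3 had 7.16 and Gbp2 2.48. Psmb8, the immunoproteasome subunit, had 4.04. Of the other effectors, Rtp4 had 5.43, the radical SAM enzyme Rsad2 (viperin) 5.42, Ifi44 5.37, Xaf1 5.06 and Ifi35 1.82. The ADP-ribosyltransferase Parp14 had 3.87, and Trim25, the ubiquitin ligase that activates RIG-I, had 1.08.

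The members Isg20, Tap1, Ifi27 and Cxcl10 were not called. Isg20, an exonuclease, was at 17.9, 17.2 and 17.2 CPM in Acly controls and 18.40, 18.46 and 22.70 CPM in LDH controls (log2 fold change -0.18, edgeR adjusted p 0.171). Tap1, a subunit of the peptide transporter, was at 64.6, 55.9 and 66.8 CPM against 75.1, 72.1 and 93.7 CPM (-0.36, adjusted p 0.139). Both were slightly lower in every Acly control than in every LDH control. Ifi27 had a log2 fold change of 0.18 (adjusted p 0.0634) and Cxcl10, a chemokine for T cells, of 1.04 (adjusted p 0.0609).

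**Figure D2:**
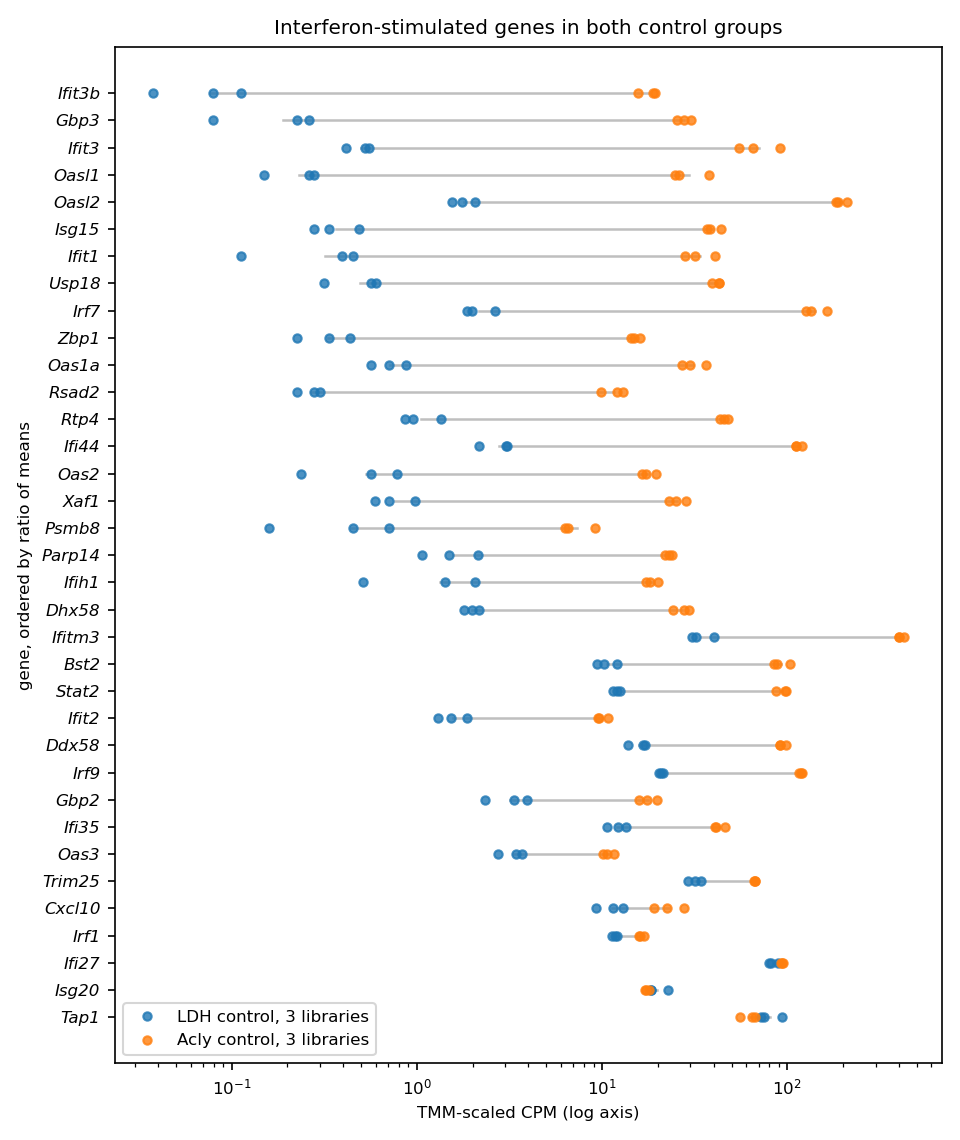
TMM-scaled CPM (log axis) of each member in the 3 LDH control libraries (blue, P5) and the 3 Acly control libraries (orange, E18.5), ordered by the ratio of the group means from Ifit3b at the top to Tap1 at the bottom. A grey line joins the means, and the colours are far apart for most genes and close for Tap1, Isg20, Ifi27 and Irf1.

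Among the 28 members with a promoter entry, the 12 with an ISRE core had a median ratio of Acly to LDH controls of 43.4 (range 2.05 to 235) and the 16 without had 9.16 (range 0.778 to 128). The ranges overlap widely, and Oasl2 and Irf7 were among those without the core in this window. Ifit3b, Gbp3 and Rsad2, with the core, and Oasl1, without it, entered only through the E18.5 libraries, so the filter partly fixes both medians. Ifit3 and Ifit3b, which share promoter sequence and have an uncertain division of reads, are both counted with the core. A link between motif and ratio was not tested.

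Markers of other cell types also differed between the control groups. Summed endothelial markers (10 genes) were at 155 to 187 CPM in Acly controls and 24.1 to 32.4 CPM in LDH controls, fibroblast and perichondrium markers (8 genes) at 3980 to 4660 against 604 to 1130 CPM, and skeletal muscle markers (8 genes) at 180 to 252 against 9.57 to 17.8 CPM. Macrophage and other myeloid markers (14 genes) were at 219 to 249 against 121 to 188 CPM, and lymphocyte markers (7 genes) at 5.46 to 7.06 against 3.04 to 3.29 CPM. No gene of these 5 lists was at 0 in all 12 libraries. Adipocyte markers (7 genes) were at 309 to 344 against 75.6 to 89.5 CPM, and red blood cell markers (7 genes) at 90.7 to 131 against 29.5 to 44.8 CPM. In bulk RNA, fewer cells of a type and less RNA per cell cannot be told apart, and the part of these cells in the level of the interferon-stimulated genes was not tested.

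Loss of Acly was compared with its own E18.5 controls to ask whether lower cytoplasmic acetyl-CoA supply went with a change in these genes. At an adjusted p of 0.05 edgeR called no member (0 of 35, against 0.136% of 13973 genes), with 1 at an unadjusted p under 0.05 (15.8% of all genes), and 0 passed with DESeq2 or with limma. The log2 fold change was negative for 33 of 35 members, against 50.3% of all genes, and its median was -0.37, against 0.00 for all genes. The knockout and the control libraries were fully apart for 1 member, which was lower (12.4% of all genes lower in this way, 9.68% higher). Without Acly knockout replicate 2 the median of the members was -0.04, and 22 were negative and 13 positive, so that this library sets the sign for many members. Without replicate 1 the median was -0.88, and 27 of 35 members had an unadjusted p under 0.05 by edgeR, beside 3194 of 14150 genes. None of them passed, the lowest adjusted p being 0.0547.

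The 3 Acly knockout libraries differed widely from each other in these genes. Relative to the mean of the controls, the median member was at 116% in knockout replicate 1, 36.9% in replicate 2 and 75.6% in replicate 3. Replicate 1 lay above all 3 controls for 31 of 35 members (28.5% of all genes tested), replicate 2 was the lowest of the 6 libraries for 32 (36.2%), and replicate 3 lay below all 3 controls for 31 (34.4%). The order replicate 1 above 3 above 2 was seen for 32 members, against 26.3% of all genes. Replicate 2 was under 50% of the control mean for 26 of 35 members (74.3%), against 7.31% of all genes. This order was noticed in the data and is given as a description.

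**Figure D3:**
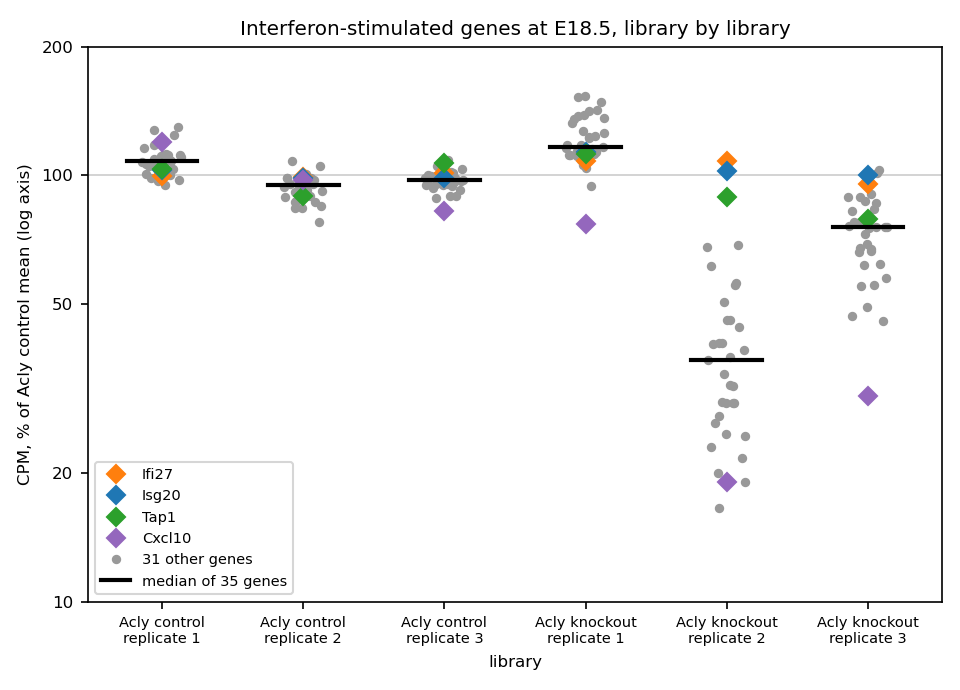
CPM of each member as a percentage of the Acly control mean (log axis) in the 6 libraries of the E18.5 set, with the median of the 35 genes as a black bar. The bars of the 3 controls lie near 100%, those of knockout replicates 1, 2 and 3 at 116%, 36.9% and 75.6%, and Ifi27 and Isg20 stay near 100% in all libraries whereas Cxcl10 is under 100% in all 3 knockouts.

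Most roles showed this spread. Irf7 read 167, 52.2 and 108 CPM in Acly knockouts 1 to 3, beside 164, 126 and 134 CPM in the controls. Oasl2 was at 223, 56.8 and 147 CPM against 211, 188 and 184 CPM, and Ifitm3 at 434, 207 and 356 CPM against 429, 402 and 400 CPM. For these 3 genes replicate 1 was the highest library and replicate 2 the lowest of the 6. Their log2 fold changes were -0.37, -0.44 and -0.29, with edgeR adjusted p of 0.570, 0.547 and 0.496. Ifi44, a GTP-binding-like protein that restrains virus growth, was at 124, 33.7 and 70.5 CPM against 111, 112 and 121 CPM (-0.58, SE 0.35, adjusted p 0.421). Zbp1 was at 16.8, 3.48 and 7.05 CPM against 16.0, 14.8 and 14.4 CPM (-0.72, adjusted p 0.420). Xaf1, a pro-apoptotic protein that antagonises XIAP, was at 26.5, 11.7 and 19.2 CPM against 28.53, 23.01 and 24.97 CPM (-0.40, adjusted p 0.417). Oasl1 and Gbp3 had -0.53 and -0.58 with adjusted p of 0.501 and 0.523, and Bst2 had -0.10 with 0.882 (0.22 without replicate 2).

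The Ifit genes included the lowest value of replicate 2, where they were at 16.6% to 37.4% of the control mean, while they were at 122% to 149% in replicate 1 and 45.4% to 67.1% in replicate 3. The sensors were at 23.1% to 38.9% in replicate 2 and the Oas genes at 24.5% to 67.9%. At the other end, Isg20 was at 102% and Ifi27 at 108% of the control mean in replicate 2, Tap1 at 88.9% and Irf1 at 68.8%. These 4 genes also had the smallest spread among the knockouts, with a coefficient of variation of 6.80% for Isg20, 7.04% for Ifi27, 18.4% for Tap1 and 24.5% for Irf1, against a median of 57.0% for the members and 12.9% for all genes. Among controls the median was 7.51% for the members and 8.47% for all genes.

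Cxcl10 and Gbp2 were the members under 100% of the control mean in replicate 1. Cxcl10 was at 17.7, 4.39 and 7.01 CPM in knockouts and 27.6, 22.5 and 19.0 CPM in controls, so that every knockout was below every control. On the log2 scale the difference was -1.24 (SE 0.41, edgeR adjusted p 0.259, unadjusted p 0.0154). Without replicate 2 it was -0.90 (SE 0.29, edgeR adjusted p 0.197) and without replicate 1 it was -1.99 (SE 0.24, adjusted p 0.0547). Gbp2, a GTPase that responds to type II interferon, was at 16.7, 5.19 and 9.80 CPM against 19.8, 17.5 and 15.9 CPM (-0.74, adjusted p 0.323). Replicate 1 alone of the Gbp2 knockout values lay within the control range.

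Other measures also differed between these libraries, but not in the order replicate 1 above 3 above 2. Acly itself read 78.8, 48.2 and 82.1 CPM in Acly knockouts 1 to 3, lowest in replicate 2. Y-linked signal was 0.0755, 74.3 and 82.8 CPM in these libraries, beside 0.375, 121 and 2.83 CPM in controls 1 to 3. Among the libraries with high Y-linked signal, knockouts 2 and 3 were both below control 2 for 30 of 35 members (40.2% of all genes) with a median log2 difference of -0.82. Among those with low signal, knockout 1 was above controls 1 and 3 for 31 of 35 members (34.1% of all genes) with a median of 0.17. The former set holds 1 control and the latter 1 knockout, so that both repeat the order of the libraries given above. With the Y-linked signal as a covariate the median was -0.34.

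Markers of other cells moved with replicate 2 in part. Summed fibroblast and perichondrium markers were at 1410 CPM in replicate 2 and 3600 to 4660 CPM in the other 5 libraries of the set. All 8 genes were under 50% of the control mean there, against 7.31% of all genes. Skeletal muscle markers were at 74.0 CPM against 156 to 252 CPM, also with all 8 genes under 50%. Adipocyte markers (7 genes) were at 251 CPM against 309 to 513 CPM, with 0 genes under 50%. Myeloid markers, at 234 CPM against 219 to 279 CPM, endothelial markers, at 213 against 155 to 218 CPM, and lymphocyte markers, at 6.93 against 5.46 to 7.06 CPM, lay within the range of the other libraries. Chondrocyte markers were at 15500 to 17900 CPM in the 3 knockouts and 9370 to 10200 CPM in the controls. The part of fibroblasts, muscle cells and adipocytes in the lower level of replicate 2 was not tested.

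Loss of Ldha was compared with its P5 controls, where reduced glycolysis was the question. No member passed the threshold by edgeR (0 of 31 tested, against 2.49% of 13321 genes), with 8 at an unadjusted p under 0.05 against 19.6% of all genes, while 2 of 31 passed with DESeq2 (6.76% of all genes) and 1 of 22 with limma on FPKM (2.4%). The log2 fold change was positive for 27 of 31 members (51.0% of all genes) with a median of 0.35, against 0.01 for all genes. Every knockout lay above every control for 8 of the members tested (12% of all genes) and below for 0 (12.3%). Among members with a mean of at least 1 FPKM the median was 0.16. Without knockout replicate 3 or without control replicate 3 the median of the members was 0.25.

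Among the 31 tested members, the 8 whose groups did not overlap were Isg20, Irf7, Irf9, Stat2, Oasl2, Oas2, Xaf1 and Ifit2. Isg20 was at 30.3, 25.4 and 27.2 CPM in knockouts and 18.40, 18.46 and 22.70 CPM in controls. The log2 difference was 0.48 (SE 0.12, edgeR adjusted p 0.0637), and it passed with DESeq2 (adjusted p 0.0127) and limma (0.0496). With the Y-linked signal as a covariate it was 0.24 (edgeR adjusted p 0.446), and with a library left out it was 0.41 to 0.59, with adjusted p from 0.0547 to 0.236. Irf7, Irf9 and Stat2, the signal carriers that are themselves targets, were in this group. Irf7 was at 3.20, 2.99 and 3.89 CPM against 2.66, 1.99 and 1.86 CPM (0.63, adjusted p 0.158), Irf9 at 27.1, 22.5 and 24.4 CPM against 20.4, 21.3 and 20.9 CPM (0.24, adjusted p 0.216), and Stat2 at 17.3, 15.0 and 13.6 CPM against 12.11, 12.49 and 11.47 CPM (0.35, adjusted p 0.167). None of these passed on its own.

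Oasl2 read 2.12, 2.99 and 4.27 CPM in LDH knockouts, beside 2.06, 1.76 and 1.54 CPM in controls, where knockout 1 and control 1 nearly touched (0.80, SE 0.28, adjusted p 0.156). Xaf1 was at 1.43, 1.10 and 1.48 CPM against 0.710, 0.975 and 0.593 CPM (0.81, adjusted p 0.183), and Ifit2 at 2.35, 2.40 and 2.14 CPM against 1.87, 1.54 and 1.31 CPM (0.55, adjusted p 0.229). These levels rest on 15 to 110 counts a library. Isg15 had the largest estimate among the members tested, 0.97 (SE 0.44, adjusted p 0.263), at 0.809, 0.394 and 0.971 CPM in knockouts against 0.337, 0.488 and 0.277 CPM in controls. Of the untested members, Gbp3 and Ifit3b also had every knockout above every control. Gbp3 was at 0.424, 0.590 and 0.350 CPM against 0.262, 0.225 and 0.0791 CPM, and Ifit3b at 0.154, 0.197 and 0.427 CPM against 0.0374, 0.113 and 0.0791 CPM, a few counts a library. Tap1 went the other way, at 51.6, 38.3 and 73.7 CPM against 75.1, 72.1 and 93.7 CPM, with knockout 3 within the control range. Its log2 difference was -0.56 (SE 0.20, edgeR adjusted p 0.167), with 0.0389 by DESeq2. It was -0.84 without knockout replicate 3 (edgeR adjusted p 0.0158), -0.35 without knockout replicate 2 (0.411) and -0.43 without control replicate 3 (0.323). For the abundant members the estimates were 0.02 for Ifitm3, 0.01 for Bst2 and -0.10 for Ifi27 (SE 0.12, 0.14 and 0.08, edgeR adjusted p 0.947, 0.975 and 0.513), and leaving out a library turned the sign for Ifitm3 and Bst2.

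Control replicate 3, the LDH control with low Y-linked signal like the knockouts, was the lowest of the 6 libraries for 12 of 31 members (21.4% of all genes). All 3 knockouts lay above it for 16 members (32.7% of all genes) and below it for 2 (29.9%). With the Y-linked signal as a covariate the median of the members was 0.39, and 0 members passed, where only 3 of 13321 genes (0.0225%) did by edgeR. Summed adipocyte markers (7 genes) were at 102 to 130 CPM in LDH knockouts and 75.6 to 89.5 CPM in controls, and myeloid markers at 129 to 240 against 121 to 188 CPM. Chondrocyte markers were at 20900 to 31300 against 11400 to 13300 CPM. Of the adipocyte markers 4 of 7 passed by edgeR (2.49% of all genes), all higher, with a list median of 3.52. Endothelial markers were positive for 8 of 9 tested (median 0.29) and myeloid markers for 12 of 14 (median 0.14), against 51.0% of all genes. Of 7 tested skeletal muscle markers 4 were positive and 3 negative, and Tnnt3 passed (higher, edgeR adjusted p 0.0351). Of 8 fibroblast and perichondrium markers 7 were negative, with a median of -0.57, and Col1a2 passed (lower, edgeR adjusted p 0.0196). All 4 tested red blood cell markers were negative, with a median of -0.94. The part of these cell types in the shift was not tested.

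**Figure D4:**
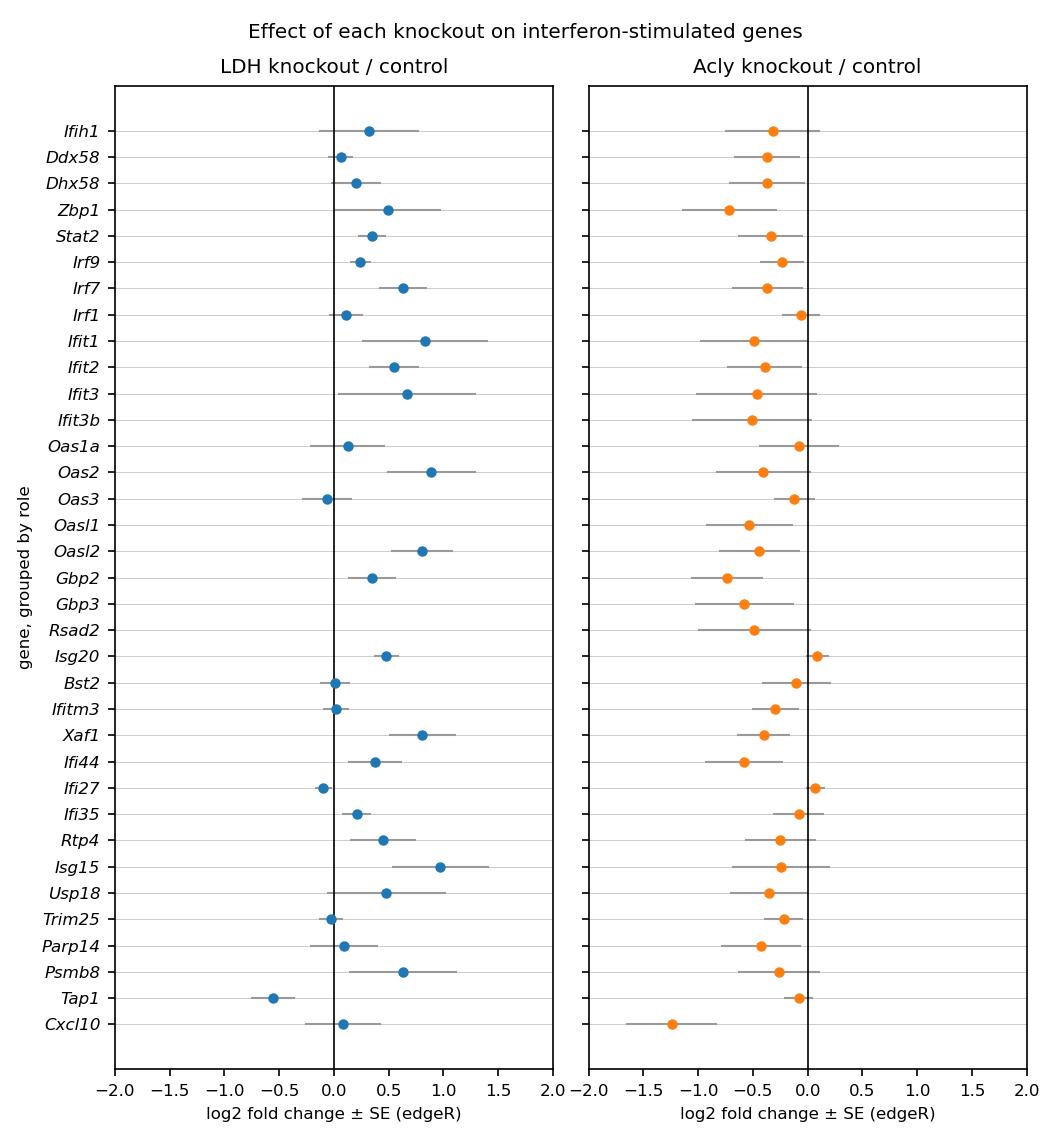
Log2 fold change with its standard error (edgeR) of each member, grouped by role, in the LDH comparison (left, blue) and the Acly comparison (right, orange), where 4 members without a point on the left were too low to be tested. Points lie mostly right of 0 on the left (27 of 31) and left of 0 on the right (33 of 35), and no member passed the threshold in either.

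The difference between both knockout effects was tested as an interaction in the fit of all 12 libraries. No member passed (0 of 35 by edgeR, against 0.161% of 14251 genes), with 3 at an unadjusted p under 0.05 (13.0% of all genes) and 0 by DESeq2. The effect was more positive in the LDH knockout for 33 of 35 members (54.2% of all genes), with a median difference of 0.71 on the log2 scale against 0.03 for all genes. Ifit3b, Oasl1, Gbp3 and Rsad2 entered this fit only through the E18.5 libraries, and their LDH effects rest on few counts. All of them were positive. They are included in every count and median of this paragraph, and these figures were not computed without them. Xaf1 had the lowest adjusted p, 0.273, with a difference of 1.22. Without Acly knockout replicate 2 the median difference was 0.39 and 28 members were positive, and without Acly knockout replicate 1 it was 1.27 and 33 were positive. Age and deleted gene cannot be told apart in it.

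The genes around the members were read from lists of the pathway. Of 21 interferon ligand genes 7 had a row, and none was high in any library, since their summed signal was at most 0.653 CPM. Ifnb1, the type I interferon of most tissue cells, had 1 count in Acly knockout replicate 1 and 0 in the other 11 libraries, each of which allows up to 0.107 to 0.114 CPM. The type I receptor was present at both ages. Ifnar1 was at 68.4, 75.0 and 67.5 CPM in Acly controls and 63.9, 67.8 and 53.5 CPM in LDH controls, and Ifnar2 at 77.6, 75.0 and 70.1 against 63.0, 55.5 and 63.6 CPM. Ifnar1 did not pass between the control groups (log2 difference 0.19, adjusted p 0.177) and Ifnar2 passed (0.30, adjusted p 0.0129). Of 12 receptor and signalling genes, 0 passed in either knockout comparison and 7 passed between the control groups, 6 of them higher at E18.5, a share near the 55.0% of all genes called there. In this list Socs3 and Jak2 had the lowest p after loss of Acly, at -0.39 and -0.43 (adjusted p 0.167 and 0.245).

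Of 18 tested genes of nucleic acid sensing and interferon induction, 0 passed in the Acly comparison, and 0 of 17 in the LDH comparison. Tmem173 (STING) had the lowest p in the former, at -0.39 (adjusted p 0.252), and Irf3 and Mavs in the latter, at 0.40 and -0.30 (0.0674 and 0.0748). Between the control groups 14 of the 18 passed, 9 higher and 5 lower at E18.5, where 55.0% of all genes passed and 29.4% were called higher. Only 17 of the 18 could be tested among the P5 libraries, and the other entered through the E18.5 libraries. Among 57 other interferon-stimulated genes, 53 passed between the control groups, all higher in Acly controls (55.0% of all genes, 29.4% higher). Only 42 of the 57 could be tested among the P5 libraries. The remainder entered through the E18.5 libraries and had to differ, so that the count of 53 is partly fixed by the filter. In the Acly comparison 0 of these 57 passed, 55 were negative (50.3% of all genes) and the median was -0.37. Acly knockout replicate 2 was the lowest of the 6 libraries for 54 of them (36.2% of all genes). It was under 50% of the control mean for 42 (73.7%, against 7.31% of all genes). Cxcl9, like Cxcl10 a ligand of the receptor Cxcr3, was at 6.57, 0.690 and 2.29 CPM in Acly knockouts against 7.87, 10.8 and 7.99 CPM (-1.47, adjusted p 0.288). In the LDH comparison 0 of 42 tested passed, with 31 positive (51.0% of all genes).

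Of 12 genes of MHC class I presentation, 10 were positive in the LDH comparison (51.0% of all genes), with a median of 0.13. The 1 that passed (2.49% of all genes) was Tapbp, which loads peptide onto class I molecules beside Tap1. It read 67.2, 59.7 and 51.2 CPM in knockouts beside 42.8, 38.5 and 37.3 CPM in controls, a log2 difference of 0.59 (SE 0.11, edgeR adjusted p 0.0245). Tap1 and Tapbp thus had opposite signs there. In the Acly comparison 0 of 12 passed and 11 were negative (50.3% of all genes). They were led by B2m, the light chain of class I, at -0.29 (edgeR adjusted p 0.438). Between the control groups 9 of 12 passed, all higher at E18.5 (29.4% of all genes), while H2-K1 and H2-D1, classical heavy chains, had log2 fold changes of -0.08 and -0.17 and did not pass.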

How the data were processed

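RNA-seq of 12 samples was analysed. The table deposited by the authors holds an expected (estimated) read count, an FPKM value and a TPM value for each of 17922 genes and 12 samples. Expected counts are so called here because 7.32% to 8.16% of those deposited in a sample are not whole, and they sum to 26362407 to 28154143 a sample. Levels between genes and an alternative test rest on the FPKM values as deposited, and no result uses the deposited TPM values. HISAT2 2.0.4 and build mm9 are named in the submitters' processing notes. The counting program, annotation and strand setting are not given in the sources used here, so reads of overlapping, antisense or near-identical genes may be misassigned.

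Expected counts were rounded. The tests used R 4.3.3 with edgeR 4.0.16 (TMM, filterByExpr, two-sided quasi-likelihood tests, Benjamini-Hochberg adjustment over all genes tested, threshold 0.05). Each knockout was fitted with its own control. All 12 samples were fitted together for the difference of effects and for the controls of both sets. Standard errors are the log2 fold change divided by the square root of F. CPM levels were TMM-scaled over all 12 samples. The procedure was tested on simulated counts. Alternatives were DESeq2 1.42.0, limma 3.58.1 on log2(FPKM + 0.1) for genes over 0.5 FPKM in at least 3 samples, other scalings, no filter, a Y-linked covariate, a replicate block and leaving out each sample.

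The members and lists were chosen with earlier results of these data known. Values are given for the 8 members with the lowest p in each knockout comparison and the 5 with the highest mean FPKM. Other members, and Tmem173, Cxcl9, H2-K1 and H2-D1, Ifnar1 and Ifnar2 among the lists, were chosen after their values were seen.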

Additional observations from a re-analysis of the deposited data

How the results depend on the processing

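Groups hold 3 samples each, which limits the precision, and P5 levels of many members rest on few counts. Median-of-ratios scaling changed no count of called members. In the LDH comparison 2 members passed with DESeq2, 1 with limma and 1 with the replicate block (Tap1, lower, adjusted p 0.0332 by edgeR), and 0 to 1 when a sample was left out. Correlations between the deviations of same-numbered samples were -0.223 to 0.0491. With 3 samples a group they cannot show whether this number is a pairing, and the labels do not say. The replicate block moved the count of all genes called from 332 to 362 (LDH) and from 19 to 8 (Acly). All genes called in the LDH comparison were 901 with DESeq2, 3 with the Y-linked covariate and 95 to 1068 with a sample left out. In the Acly comparison they were 11 without scaling, 32 without the filter, 247 with DESeq2, 6 with the Y-linked covariate and 0 to 132 with a sample left out. Of the latter, leaving out knockout replicate 2 gave 132, and leaving out control 1 or 3 gave 0 by edgeR, where 2323 and 1008 genes had an unadjusted p below 0.05. No member was called in the Acly comparison or in the difference of effects under any alternative run, and 30 to 33 were called between the control groups.

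The LDH median of the members was 0.22 with limma, 0.16 for members with a mean of at least 1 FPKM, and 0.25 to 0.42 with a sample left out. The Acly median was -0.88 to -0.04 with a sample left out, the former without knockout replicate 1 and the latter without replicate 2. Signs turned for Ifitm3 in the LDH comparison (-0.0587 to 0.15 with a sample left out), for Bst2 there (-0.22 with the Y-linked covariate, -0.0734 to 0.12 with a sample left out) and for Bst2 in the Acly comparison (-0.53 to 0.22 with a sample left out, the latter without knockout replicate 2). The cause was not tested in any of these.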
